A study of Homo sapiens with 4 samples.

Results

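Autophagy and lysosome genes were followed in the human medulloblastoma line Daoy with and without an shRNA directed at ARID1B. The set held 37 genes of 57820 gene identifiers. It was chosen by name to cover 8 roles: cargo receptors, the ubiquitin-like ATG8 proteins, the ULK kinase complex, the class III PI3-kinase complexes, the effectors that act on their lipid, the conjugation enzymes, the MiT/TFE transcription factors and the lysosome itself. All 37 matched a single identifier and all 37 passed the filter on low counts, so the counts below cover the whole set.

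The data comprised 4 poly(A) RNA sequencing libraries. The 3 control libraries carry the genotype wild-type, and the series design names both parental Daoy cells and cells with the empty tet-pLKO-puro vector as controls, without saying which library is which. The remaining library came from a polyclonal Daoy population that expresses an ARID1B shRNA under doxycycline control. Doxycycline at 1 µg/ml for 72 h is the treatment given for every library, controls included. The label of the shRNA library was not borne out by its own target: ARID1B, a subunit of the BAF chromatin remodelling complexes, stood at 164, 88.0 and 72.9 library-scaled CPM (the share of reads in genes on a common scale after TMM scaling) in wild-type libraries 1, 2 and 3 and at 175 CPM in the library labelled ARID1B shRNA, called the shRNA-labelled library from here on. Its log2 fold change was 0.69 (edgeR adjusted p = 0.399), and it passed as higher without wild-type library 1 (1.12, edgeR adjusted p = 0.0260). MTAP, a methionine salvage enzyme, had 41, 102 and 44 reads in the wild-type libraries and 0 in the shRNA-labelled library. Its neighbour CDKN2B, a cell cycle inhibitor, went from 114, 267 and 125 reads to 0 (edgeR adjusted p = 0.0432), and CDKN2A, scarce in wild type with 1, 3 and 4 reads, was also at 0. The identity of the shRNA-labelled library is therefore unsettled, and every difference below is one between libraries as labelled. Of the markers of cerebellar granule precursors and medulloblastoma, ATOH1 was at 0 in every library and BARHL1 at 0 in the wild-type libraries, while ZIC1 measured 15.4 ± 2.81 CPM (SD, n = 3) in wild type and 16.2 CPM in the other library, and PAX6 23.1 ± 3.05 and 22.01 CPM. ZIC2 of the same list rose from 9.22 ± 1.25 to 24.8 CPM (edgeR adjusted p = 0.0430), and GLI2 was above the wild-type range, at 7.98 ± 2.01 and 14.8 CPM. GLI1 (1.91 ± 1.18 and 1.25 CPM) and NES (4.54 ± 0.459 and 4.11 CPM) lay within the wild-type range. With the trend on GC content and length removed, as described below, ZIC2 did not pass (log2 fold change 0.88). GLI2 then lay within the range (-0.15) and NES below it (-0.86). The sum of 8 such markers was 54.3 to 67.7 CPM in wild type, 83.3 CPM in the other library, and that of 4 epithelial markers 231 to 333 and 390.2 CPM. The keratins KRT8 (101 ± 37.6 and 164 CPM) and KRT18 (195 ± 21.0 and 225.5 CPM) carried the epithelial sum, and neither passed. EPCAM (1.08 ± 0.564 and 0.684 CPM) and CDH1 (0.208 ± 0.163 and 0 CPM) were nearly absent and did not follow it. The mesenchymal marker sum was 25169 to 32212 CPM in wild type against 15174 CPM in the shRNA-labelled library. FN1 carried most of it, with 23297 ± 4004 and 10750 CPM, and VIM was the mesenchymal marker that passed, falling from 2513 ± 125 to 937 CPM (edgeR adjusted p = 0.0213). COL1A2 (1740 ± 413 and 775 CPM) also lay below the wild-type range. As measured, COL1A1 (2111 ± 766 and 2691 CPM) and TWIST1 (18.8 ± 1.21 and 20.6 CPM) did not follow the sum. That split depended on the trend: once it was taken out, COL1A1 (-0.72) and TWIST1 (-0.20) were below every wild-type library too. VIM, FN1 and COL1A2 stayed below, and neither COL1A1 nor TWIST1 passed. Markers of leukocytes, which include the lysosome-rich macrophages, summed to 0.310 to 1.31 CPM in wild type, 0.570 CPM in the other library, with PTPRC, CD68 and LYZ at 0 there. The libraries held 12619786, 13228587 and 15390106 reads in genes for wild type and 8792848 for the shRNA-labelled library.

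Macroautophagy encloses cytoplasm in a double membrane and delivers it to the lysosome. The ULK kinase complex starts the process, a PI3-kinase built on Beclin 1 marks the membrane with PI3P, and conjugation enzymes attach ATG8 proteins such as LC3 to it, where cargo receptors such as p62 bind. The lysosome then breaks the content down with acid hydrolases, and the transcription factors TFEB and TFE3 switch many of these genes on together when nutrients run short or lysosomes are stressed.

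TFE3 was the 1 member called in the main test, and the call held under 8 of 11 alternative settings. As measured it rose from 58.0 ± 3.92 CPM (SD, n = 3) to 117 CPM, a log2 fold change of 1.01 with a standard error (SE) of 0.17 (edgeR quasi-likelihood test, adjusted p = 0.0378). The call was lost without wild-type library 2 or 3 (edgeR adjusted p = 0.0697 and 0.0729) and with the trend on GC content and length removed (log2 fold change 0.33, edgeR adjusted p = 0.362), where GABARAPL1 was called instead. No other member passed as measured, and none was called lower. With 1 of 37 genes, 2.70% of the set was called, against 763 of 17024 tested genes, or 4.48%, and no direction of the set as a whole can be read from that. By direction, 3.65% of tested genes were called higher and 0.834% lower. At an unadjusted p below 0.05 stood 14 members, 37.8% of the set, against 25.4% of all tested genes, and 7 members had an edgeR adjusted p between 0.05 and 0.1. The share of all tested genes in that last range was not counted, so no excess can be read from it. The library labelled ARID1B shRNA has no replicate, so the spread in each test came from the wild-type libraries alone, and nothing in the labels says that those were separate cultures. In bulk RNA, fewer cells of a kind and less RNA per cell cannot be told apart.

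**Figure D1:**
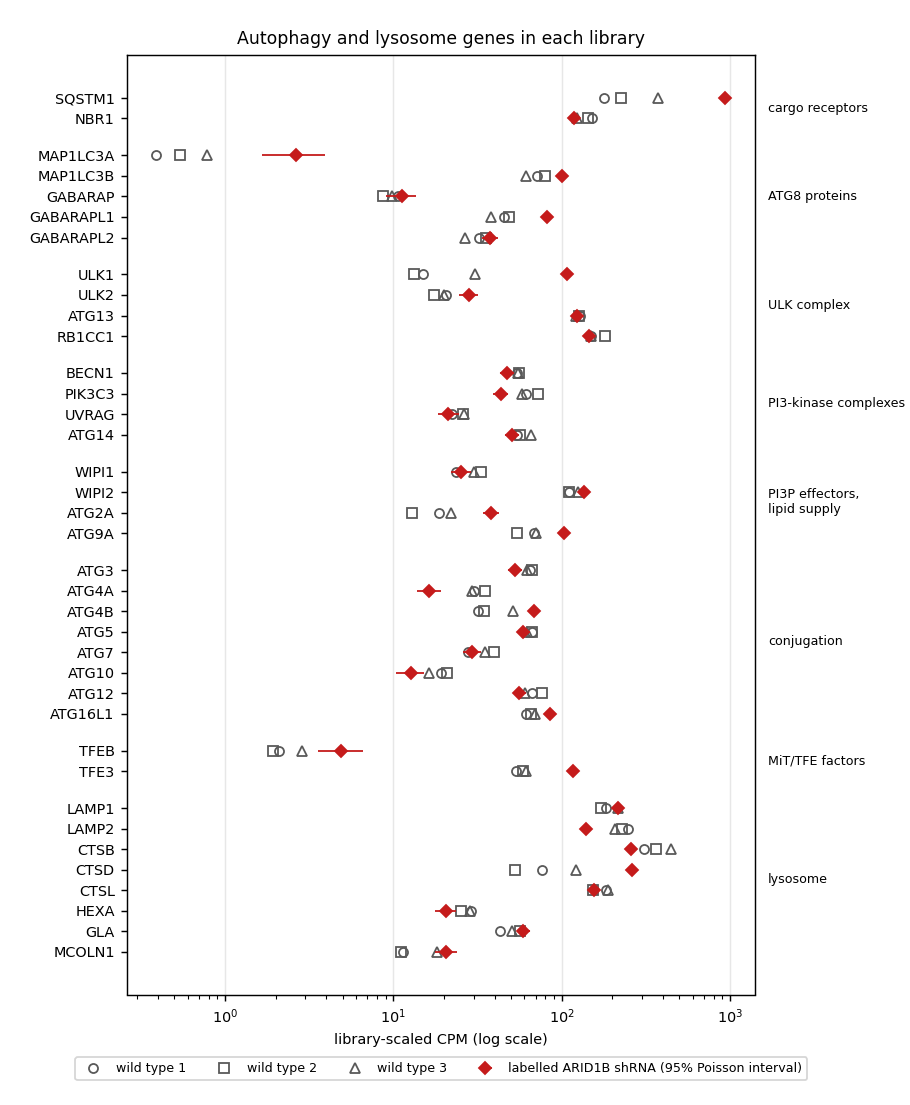
Library-scaled CPM (log axis) of the 37 genes, grouped by role, in the 3 wild-type libraries (open symbols) and the shRNA-labelled library (red, with its exact 95% Poisson interval, which covers counting error only). SQSTM1, ULK1 and TFE3 lie to the right of all wild-type symbols, while PIK3C3, ATG4A and LAMP2 lie to the left of them.

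Across the set, 19 genes were higher in the shRNA-labelled library than in every wild-type library, 14 were lower than in every one, and 4 lay within the wild-type range. The 33 genes outside the range made 89.2% of the set, against 73.3% of all tested genes (35.4% above and 37.9% below). Most of the distances were small. The median log2 fold change of the members was 0.18, against -0.05 over all tested genes, and 7 members differed by more than 1 on the log2 scale: SQSTM1, MAP1LC3A, ULK1, ATG2A, TFEB, TFE3 and CTSD. All 7 were higher, and the share of all tested genes that differed as much was not counted.

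Transcript GC content moved with these values and has to be read beside each of them. The members run from 37.5% to 64.5% GC in their longest transcript, and the 7 genes just named all lie above 55%. Of the 10 members above 55% GC, all 10 were above the wild-type range, with a median log2 fold change of 1.08; over all 4543 tested genes of that GC class 68.3% were above the range and the median was 0.66. Of the 11 members under 45% GC, 10 were below the range and 1 was above, with a median of -0.28; the 6262 tested genes of that class had 55.7% below and a median of -0.27. A fit that removes each library's smooth trend on GC content and transcript length was therefore run beside the main one, and its value is called trend-removed in what follows. The members' median was -0.02 trend-removed, 2 members, SQSTM1 and GABARAPL1, then differed by more than 1 on the log2 scale, and 27 of 37 were outside the wild-type range, against 70.5% of all tested genes. The TFE3 call ended there (0.33, SE 0.19, edgeR adjusted p = 0.362), and GABARAPL1 was called in its place. That was 1 member of 37 called, as higher, where 2.84% of all genes were called, 2.02% higher and 0.822% lower; 34% of all genes then lay above and 36.5% below the wild-type range. The parts of GC content and length in the single results were not tested beyond this fit.

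**Figure D2:**
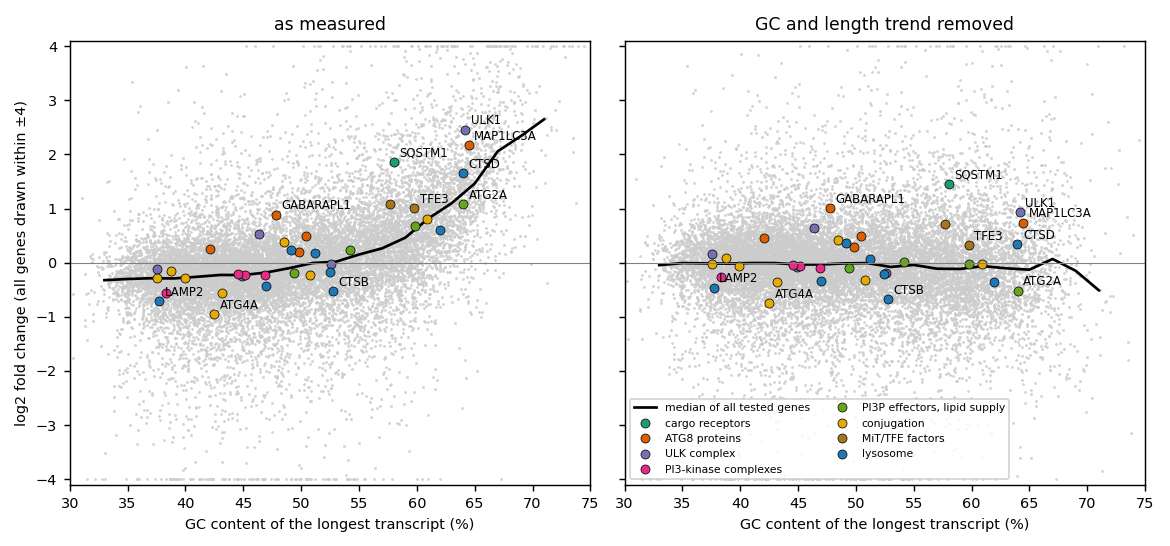
Log2 fold change of the shRNA-labelled library against wild type by GC content of the longest transcript, as measured (left) and trend-removed (right). Coloured points are the 37 genes by role, grey points all tested genes and the line their median in bins of GC content. On the left the line climbs with GC content and most members lie near it; SQSTM1 and GABARAPL1 lie above the line in both panels.

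The wild-type libraries differed among themselves along the same axis. In 7 members the highest wild-type library exceeded the lowest by more than 1.5-fold, namely SQSTM1, MAP1LC3A, ULK1, ATG2A, ATG4B, CTSD and MCOLN1; all 7 lie above 55% GC and all 7 were highest in wild-type library 3. Relative to the mean of the other wild-type libraries on the log2 scale, the members above 55% GC had a median of 0.56 in library 3, -0.31 in library 2 and -0.23 in library 1. The members under 45% GC had -0.20, 0.22 and 0.01 in the same order. BECN1 gave 54.4, 55.8 and 55.2 CPM in wild-type libraries 1 to 3, the closest agreement in the set, with a highest-to-lowest ratio of 1.03.

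Among the cargo receptors, SQSTM1 encodes p62, which ties ubiquitinated cargo to LC3 and is itself consumed by autophagy, and NBR1 is its structural relative. SQSTM1 measured 177, 224 and 370 CPM in wild-type libraries 1, 2 and 3 and 934 CPM in the shRNA-labelled library. All wild-type values lay far below it, but they also differed 2.09-fold from each other. The log2 fold change of 1.86 (SE 0.39) did not pass (edgeR adjusted p = 0.0653), nor did the trend-removed 1.45 (SE 0.32, edgeR adjusted p = 0.0941). Leaving out wild-type library 1 or library 3 brought SQSTM1 past the threshold, at 1.65 and 2.22 on the log2 scale (edgeR adjusted p = 0.0308 and 0.0398). NBR1 measured 152, 144 and 123 CPM in wild type and 117 CPM (log2 difference -0.25, edgeR adjusted p = 0.454). The receptors thus differed in sign, and SQSTM1 went from 72.6% ± 9.10 (SD, n = 3) to 92.5% of the reads per kb of this pair. SQSTM1 alone made up 6.5%, 7.92% and 11.8% of the reads of all 37 genes in wild type and 24.7% in the shRNA-labelled library. Summed CPM of the set was 2722, 2824 and 3127 in wild type and 3784 there; without SQSTM1 it was 2545, 2600 and 2756, and 2850. About 22% of the SQSTM1 exon bases are shared with exons of MGAT4B or MRNIP on the opposite strand in the annotation used, and the strand setting of the counting is not given in the sources used here.

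The ATG8 proteins are the small ubiquitin-like tags of the autophagosome membrane, in an LC3 and a GABARAP branch. All 5 were above every wild-type library, as measured and trend-removed, and their log2 fold changes kept a positive sign under all 11 alternative settings (10 for MAP1LC3A, which the stricter count filter removed). Being above every wild-type library largely fixes the sign when 1 of them is left out, so those settings add no support. Of all tested genes 35.4% lay above the range as measured and 34% trend-removed. None passed as measured. GABARAPL1 had the smallest p of the 5: it measured 45.6, 48.8 and 37.9 CPM in wild type against 81.6 CPM in the shRNA-labelled library, a log2 fold change of 0.89 with an SE of 0.21 (edgeR adjusted p = 0.0721). Its transcript has 47.8% GC, where the median of all tested genes is 48.1%, and the trend-removed value was 1.01 with an SE of 0.17, which passed (edgeR adjusted p = 0.0462). MAP1LC3B, the LC3 most used as an autophagosome marker, measured 71.6, 79.5 and 61.6 CPM in wild type and 100.0 CPM (log2 difference 0.50 and trend-removed 0.49; edgeR adjusted p = 0.195 and 0.187). GABARAPL2 measured 32.1, 35.3 and 26.7 CPM in wild type and 37.4 CPM (95% Poisson interval 33.5 to 41.7), a log2 fold change of 0.25. GABARAP measured 10.7, 8.66 and 9.83 CPM in wild type and 11.2 CPM (9.07 to 13.6), a log2 fold change of 0.20. For GABARAPL2 and GABARAP the interval includes the highest wild-type value, so the excess lay within counting error. Other annotated exons share 55.7% of the GABARAP exon bases, so its low level is uncertain. MAP1LC3A was nearly silent, with 5, 7 and 12 reads in wild type and 23 in the shRNA-labelled library (log2 fold change 2.17, SE 0.54, edgeR adjusted p = 0.0824), and went to 0.74 trend-removed. Per kb of transcript, MAP1LC3B was the largest of the family, with 40.4% ± 0.927 (SD, n = 3) of its reads in wild type and 39.2% in the other library. The share of GABARAPL1 went from 24.1% ± 0.462 to 30.7% and that of GABARAPL2 from 24.2% ± 0.768 to 19.9%; the difference in shares was not tested. The retrocopy gene MAP1LC3B2 had 0 reads in every library, and reads that fit it and MAP1LC3B alike would not be unique to either.

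**Figure D3:**
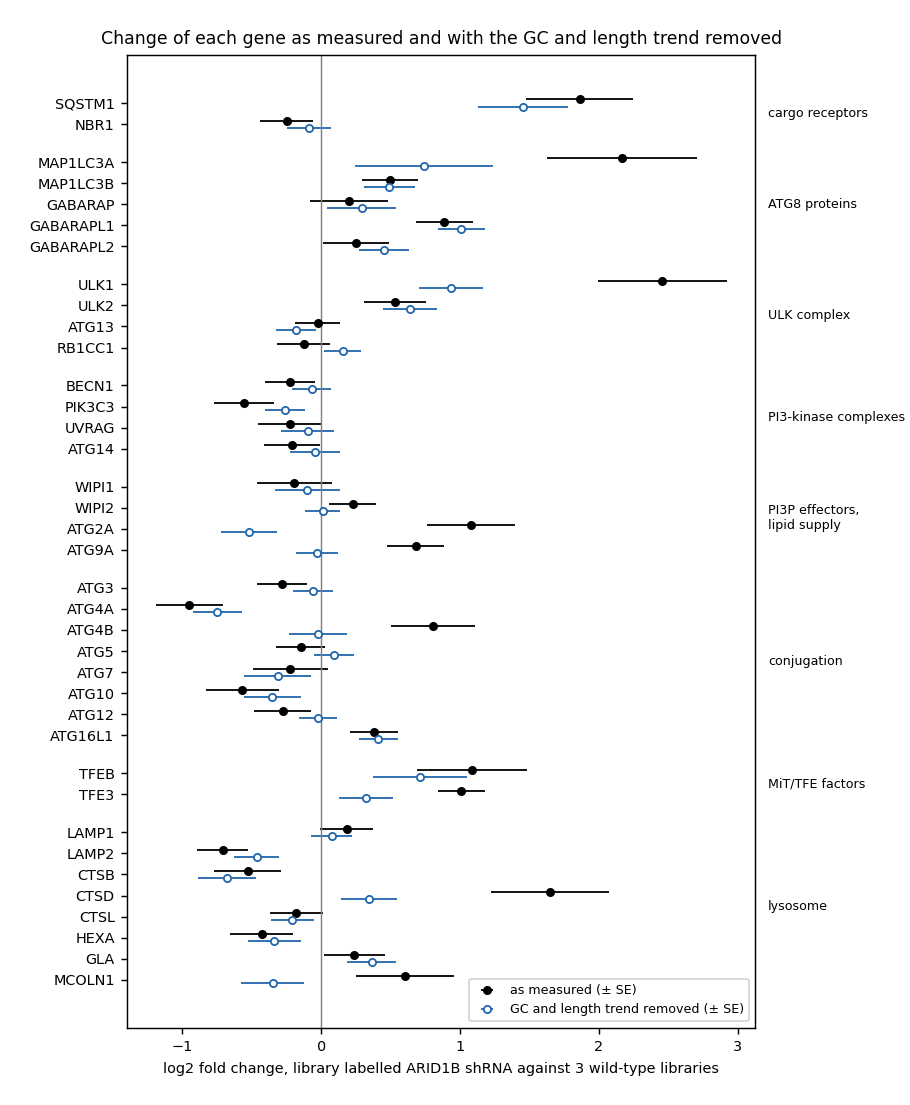
Log2 fold change ± SE of each of the 37 genes in the shRNA-labelled library against the 3 wild-type libraries, as measured (filled) and trend-removed (open). The ATG8 genes lie to the right of 0 in both forms, ATG2A, ATG4B, ATG9A and MCOLN1 cross or reach 0 once the trend is removed, and ULK1 moves from 2.46 to 0.94.

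In the kinase complex that starts autophagy, the kinases ULK1 and ULK2 were higher as measured and the members ATG13 and RB1CC1 were not, and none of the 4 passed. ULK1, the kinase that mTORC1 holds in check, measured 14.9, 13.2 and 30.6 CPM in wild type against 108 CPM in the shRNA-labelled library. That is the largest log2 fold change of the set at 2.46 (SE 0.46), and it missed the threshold (edgeR adjusted p = 0.0551). It passed without wild-type library 3 (2.94, edgeR adjusted p = 0.0398), the wild-type library in which ULK1 was highest. ULK1 has 64.2% GC, and its trend-removed value was 0.94 (SE 0.23, edgeR adjusted p = 0.0948). ULK2, its close relative with 46.4% GC, measured 20.6, 17.5 and 20.05 CPM in wild type and 28.1 CPM (log2 difference 0.53, trend-removed 0.64; edgeR adjusted p = 0.209 and 0.135). Per kb, ULK1 made up 44.96%, 46.1% and 63.3% of the ULK pair in wild type and 81.3% in the shRNA-labelled library. Those shares are as measured and were not calculated trend-removed. ATG13, the adaptor of the complex, measured 125 ± 4.17 and 123 CPM, within the wild-type range. RB1CC1, which encodes the scaffold FIP200, measured 159 ± 17.5 and 146 CPM, with log2 fold changes of -0.13 and, trend-removed, 0.15. ATG101, a partner of ATG13 outside the set, was called higher, from 16.0 ± 3.80 to 57.8 CPM (edgeR adjusted p = 0.0332). Its trend-removed value of 1.20 did not pass (edgeR adjusted p = 0.0637).

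The 4 PI3-kinase members were uniform in sign. BECN1 (Beclin 1), the lipid kinase PIK3C3 (VPS34) and the alternative partners ATG14 and UVRAG, which direct the enzyme to early autophagosomes and to endosomes, all lay below every wild-type library, and no alternative turned the sign of any of the 4. Lying below every wild-type library largely fixes the sign when 1 of them is left out, so those settings add no support. Of all tested genes 37.9% lay below the range and 53.2% were negative; of those under 45% GC, where PIK3C3 and ATG14 belong, 55.7% lay below. None passed the test. PIK3C3 differed most, with 61.2, 72.1 and 57.7 CPM in wild type and 43.3 CPM (log2 difference -0.56, SE 0.21, edgeR adjusted p = 0.182), and -0.26 trend-removed. BECN1 measured 55.1 ± 0.703 and 47.2 CPM, ATG14 58.8 ± 5.96 and 50.8 CPM, and UVRAG 24.8 ± 2.26 and 21.2 CPM, with log2 fold changes of -0.22, -0.21 and -0.23. Trend-removed these were -0.07, -0.05 and -0.10, and ATG14 and UVRAG then lay within the wild-type range. The sign was not shared by all related genes outside the set. NRBF2 (log2 fold change 0.33, trend-removed 0.52) and AMBRA1 (0.26 and -0.06) lay above every wild-type library as measured. PIK3R4 (-0.57 and -0.38) lay below every one, and NRBF2, AMBRA1 and PIK3R4 did not pass.

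Downstream of PI3P, the WIPI proteins read the lipid, ATG2A transfers lipid into the growing membrane and ATG9A scrambles and supplies it. WIPI1 measured 28.96 ± 4.94 CPM in wild type and 25.3 CPM, inside the range, and WIPI2, which recruits the conjugation machinery, 115 ± 8.15 and 135 CPM (log2 difference 0.23, edgeR adjusted p = 0.440). ATG2A measured 18.7, 12.9 and 22 CPM in wild type and 37.9 CPM (log2 difference 1.08, SE 0.32, edgeR adjusted p = 0.113). Its sign turned trend-removed, to -0.52 (SE 0.20, edgeR adjusted p = 0.201). ATG9A measured 68.4, 54.3 and 70.2 CPM in wild type and 103 CPM (0.68, SE 0.21, edgeR adjusted p = 0.120), and -0.03 trend-removed. Exons of other genes share 28.1% of the WIPI1 exon bases and 38.8% of those of ATG9A. The direction of ATG2A and ATG9A therefore depended on whether the joint trend on GC content and length was removed; the parts of GC content and length were not tested apart.

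Of the 8 conjugation genes none passed; 6 had negative and 2 positive log2 fold changes. The E1-like enzyme ATG7 and the E2-like enzymes ATG3 and ATG10 were at 34.0 ± 6.02, 64.4 ± 2.24 and 18.8 ± 2.23 CPM in wild type and 29.2, 52.9 and 12.7 CPM in the shRNA-labelled library. ATG5, ATG12 and ATG16L1 form the ligase that places LC3 on the membrane. ATG5 measured 65.4 ± 2.54 and 59.1 CPM and ATG12 67.8 ± 7.82 and 55.9 CPM, while ATG16L1 measured 65.4 ± 4.24 and 85.1 CPM (log2 difference 0.38 and trend-removed 0.41; edgeR adjusted p = 0.241 and 0.160). The ATG4 proteases, which prime the ATG8 proteins and later release them from lipid, went apart. ATG4A measured 30.2, 35.0 and 29.4 CPM in wild type and 16.3 CPM, the lowest log2 fold change of the set at -0.95 (SE 0.24, edgeR adjusted p = 0.0843), and -0.75 trend-removed (edgeR adjusted p = 0.0885). ATG4B, the broadest of these proteases, measured 31.7, 34.5 and 51.4 CPM in wild type and 68.4 CPM, with 0.80 as measured and -0.02 trend-removed. Outside the set, ATG4D rose from 4.86 ± 1.06 to 19.7 CPM (2.02, edgeR adjusted p = 0.0340) and ATG4C measured 24.96 ± 2.85 and 13.9 CPM (edgeR adjusted p = 0.122). Per kb, ATG4A and ATG4C went from 35.6% ± 4.23 and 24.1% ± 4.27 of the 4 protease genes to 15.5% and 11.2%, and ATG4B and ATG4D from 33.2% ± 6.90 and 6.98% ± 1.07 to 49.3% and 24.0%. ATG4B and ATG4D have 60.9% and 64.8% GC and ATG4A and ATG4C 42.5% and 34.8%, and the trend-removed value of ATG4D was 0.50 (edgeR adjusted p = 0.325).

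**Figure D4:**
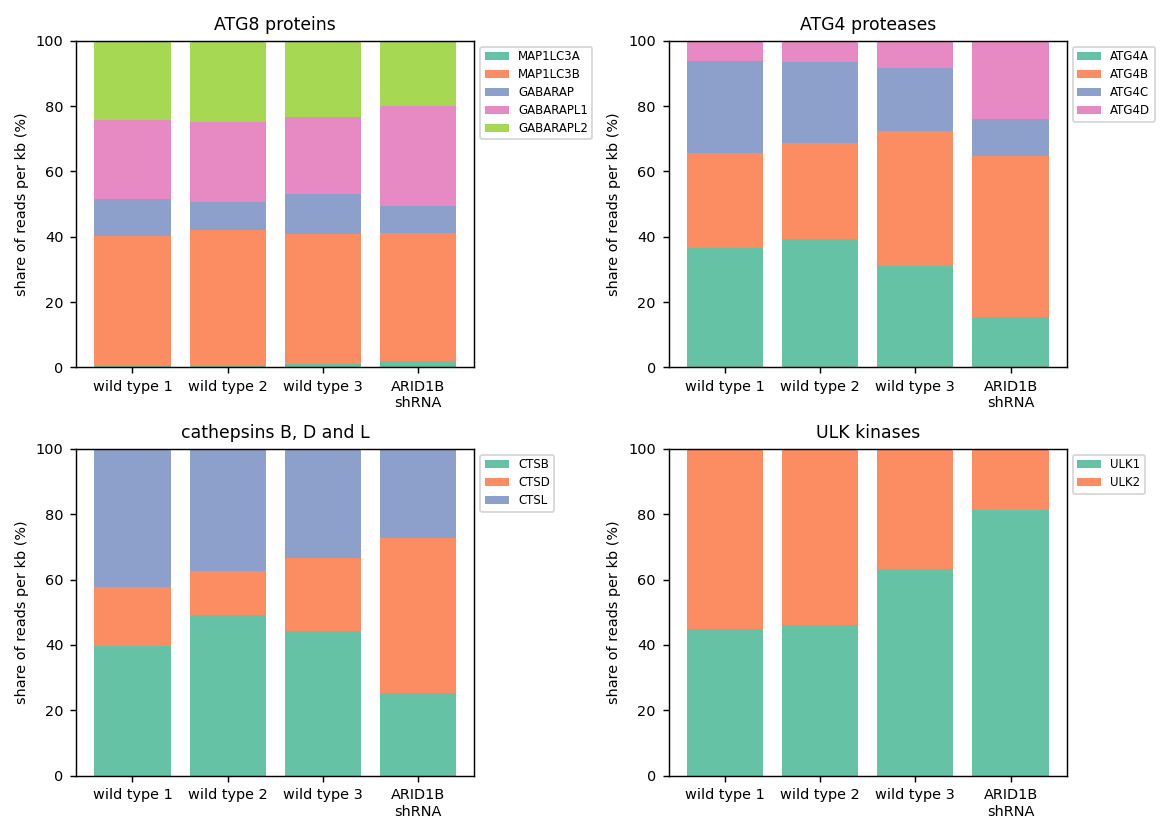
Share of reads per kb of longest transcript (%) within 4 gene families in each library; bars start at 0 and stack to the whole family. GABARAPL1 takes 30.7% of the ATG8 family in the shRNA-labelled library, CTSD 47.4% of the cathepsins and ULK1 81.3% of the ULK pair, each above all wild-type libraries. All shares are of counts as measured, without removal of the GC and length trend.

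The MiT/TFE factors bind a palindromic E-box in the promoters of lysosomal and autophagy genes, known as the CLEAR element. TFE3 measured 53.8, 58.5 and 61.6 CPM in wild-type libraries 1, 2 and 3 and 117 CPM in the shRNA-labelled library. Its single shRNA-labelled value was above all wild-type ones, as for 35.4% of all tested genes. Among tested genes above 55% GC, where TFE3 (59.8%) belongs, that share was 68.3%. The wild-type values lay close together as measured. Trend-removed they spread more, at 65.6 ± 10.2 CPM (SD, n = 3) against 82.1 CPM. Without library 2 or library 3, where the call was lost, the log2 fold change was 1.03 and 1.05. TFEB was scarce, with 27, 25 and 44 reads in wild type and 43 in the shRNA-labelled library, and its log2 fold change of 1.09 did not pass (edgeR adjusted p = 0.166; trend-removed 0.71). TFE3 accounted for 84.9% ± 2.08 (SD, n = 3) of the reads per kb of the family with MITF and TFEC in wild type and 89.7% in the other library.

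The letters of that palindrome were looked for in RefSeq promoter windows of GRCh38.p14, from 250 bases before to 50 after the annotated start, on both strands. Of the 37 genes, 31 had a window. TCACGTGA was found in 3 of them, MCOLN1, LAMP1 and ATG3 (9.68%), and in 0.980% of all 35116 windows; its core CACGTG, which it contains, was found in 5 of the 31, with ATG14 and CTSD added (16.1%), and in 7.26% of all windows. The 3 windows are shown because they hold the full palindrome, with each CACGTG core in capitals and the rest in lower case, 5′ to 3′ on the strand of the gene.
MCOLN1, chr19:7522374-7522673, plus strand: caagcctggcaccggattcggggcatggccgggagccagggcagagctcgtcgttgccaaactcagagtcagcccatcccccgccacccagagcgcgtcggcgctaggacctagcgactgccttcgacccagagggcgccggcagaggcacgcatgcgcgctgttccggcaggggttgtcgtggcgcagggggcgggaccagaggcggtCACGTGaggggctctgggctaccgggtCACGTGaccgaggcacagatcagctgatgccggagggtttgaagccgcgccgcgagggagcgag
LAMP1, chr13:113296989-113297288, plus strand: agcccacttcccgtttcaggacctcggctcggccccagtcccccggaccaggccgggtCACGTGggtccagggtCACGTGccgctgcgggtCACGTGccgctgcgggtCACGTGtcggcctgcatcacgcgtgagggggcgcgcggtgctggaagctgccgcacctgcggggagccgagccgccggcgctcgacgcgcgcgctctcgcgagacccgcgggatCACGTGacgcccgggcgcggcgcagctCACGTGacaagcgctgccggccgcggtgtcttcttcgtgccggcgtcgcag
ATG3, chr3:112561913-112562212, minus strand: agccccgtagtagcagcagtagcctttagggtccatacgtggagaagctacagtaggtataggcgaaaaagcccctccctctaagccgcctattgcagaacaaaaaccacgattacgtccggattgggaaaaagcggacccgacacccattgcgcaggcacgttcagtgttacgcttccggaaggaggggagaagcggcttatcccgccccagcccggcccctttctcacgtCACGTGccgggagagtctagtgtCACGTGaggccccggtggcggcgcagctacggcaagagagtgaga
LAMP1 holds 6 cores, MCOLN1 2 and ATG3 2. None of these 3 genes passed the test, with log2 fold changes of 0.18 for LAMP1, 0.61 for MCOLN1 and -0.28 for ATG3, and trend-removed values of 0.07, -0.35 and -0.06. Taking the wider pathway lists described at the end as well, 15 tested genes held TCACGTGA, of which 0 were called higher and 0 lower, with a median log2 fold change of 0.08 as measured and -0.21 trend-removed. All 250 tested genes with the palindrome in their window had 9 higher, 2 lower and medians of -0.09 and -0.10. The patterns TGATGNAA and TGACNNNGC, where N is any base, were looked for in the same windows. TGATGNAA was found in 0 of the 31 member windows and in 3.62% of all windows. TGACNNNGC was found in 5 of the 31 (16.1%) and in 13.3% of all windows. Letters in a window are a description and not evidence of binding.

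Among the lysosomal members, the cathepsins differed in direction. CTSD, an aspartic protease, measured 76.8, 52.9 and 122 CPM in wild type against 263 CPM in the shRNA-labelled library (log2 fold change 1.65, SE 0.42, edgeR adjusted p = 0.0973). It passed without wild-type library 3 (2.02, edgeR adjusted p = 0.0484), has 64.0% GC and went to 0.35 trend-removed; 52.7% of its exon bases are shared with other annotated exons. CTSB, a cysteine protease among the most abundant members per kb in wild type, measured 306, 360 and 444 CPM in wild type and 256 CPM (log2 difference -0.53, SE 0.24, edgeR adjusted p = 0.241), and -0.68 trend-removed (SE 0.21, edgeR adjusted p = 0.141). CTSL, also a cysteine protease, stayed inside the wild-type range with 175 ± 18.7 and 155 CPM. In reads per kb, CTSB was the largest of the 3 in wild-type libraries 2 and 3 (49.3% and 44.4%) and CTSL in library 1 (42.3%), while in the shRNA-labelled library CTSD was, with 47.4% against 17.8% ± 4.49 in wild type.

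The abundant membrane glycoproteins LAMP1 and LAMP2, which line the lysosome, also went apart. LAMP2 measured 248, 229 and 207 CPM in wild type and 139 CPM (log2 difference -0.71, SE 0.18, edgeR adjusted p = 0.0894; trend-removed -0.46, edgeR adjusted p = 0.171). LAMP1 measured 183, 172 and 216 CPM in wild type, and its 216 CPM in the shRNA-labelled library equalled the highest of them to 3 digits. HEXA and GLA, the hydrolases lacking in Tay-Sachs and Fabry disease, measured 27.5 ± 2.13 and 50.1 ± 6.87 CPM in wild type and 20.4 and 59.1 CPM. MCOLN1, the calcium channel of the lysosome, measured 11.4, 11.1 and 18.2 CPM in wild type and 20.6 CPM, with a sign that turned trend-removed, as given with its promoter. The summed CPM of the 8 lysosomal members was 1081, 1060 and 1273 in wild type and 1129 in the shRNA-labelled library, inside the wild-type range.

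The levels themselves spanned a wide range. On the scale of reads per kb of longest transcript, scaled to the same total in every library as in TPM, the wild-type order began with CTSB at 267 ± 45.1, SQSTM1 at 241 ± 90.9 and CTSL at 226 ± 28.6 (SD, n = 3), which do not differ beyond their spread, followed by LAMP2 at 159 ± 18.9. CTSD, LAMP1 and GLA formed the next group, at 111 ± 45.5, 102 ± 12.3 and 98.5 ± 10.6. The scarcest members were MAP1LC3A at 1.01 ± 0.335, TFEB at 2.48 ± 0.523 and ATG2A at 7.91 ± 2.10. In the shRNA-labelled library the order began with SQSTM1 at 940, CTSD at 372 and CTSL at 214, with CTSB at 199.

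The other genes of the pathway, in 6 lists of 148 names of which 144 were tested, had 4 genes higher and 2 lower, 4.17% called against 4.48% of all tested genes. Over all tested genes 3.65% were called higher and 0.834% lower, which is the background for the counts per list. Their median log2 fold change was -0.18, and -0.20 trend-removed. Of the 15 other cargo receptors tested, CCPG1, a receptor for autophagy of the endoplasmic reticulum, rose from 16.9 ± 1.24 to 37.0 CPM (log2 difference 1.13, edgeR adjusted p = 0.0465); it passed trend-removed as well (1.40, edgeR adjusted p = 0.0243) but not without wild-type library 1, 2 or 3 (edgeR adjusted p = 0.0581, 0.0715 and 0.101). Its exons share 39.8% of their bases with other genes, among them a readthrough with DNAAF4. The mitophagy receptor BNIP3 measured 37.6 ± 4.35 and 72.3 CPM (edgeR adjusted p = 0.0620), TOLLIP 19.1 ± 5.62 and 51.7 CPM and FKBP8 53.6 ± 28.6 and 147 CPM. Of 27 other machinery genes 2 rose, ATG4D and ATG101, a partner of ATG13 that went from 16.0 ± 3.80 to 57.8 CPM (1.85, edgeR adjusted p = 0.0332; trend-removed 1.20, edgeR adjusted p = 0.0637). Both lost the call without wild-type library 2 (edgeR adjusted p = 0.0677 and 0.0717) and without library 3 (0.0502 and 0.0502). WDR45B and VMP1 measured 103 ± 9.17 and 251 ± 23.4 CPM in wild type and 174 and 153 CPM, and did not pass.

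Of 41 other lysosomal hydrolases and activators 2 fell and 1 rose, where 0.834% of all tested genes were called lower and 3.65% higher. The acid lipase LIPA fell from 64.8 ± 2.25 to 30.9 CPM (-1.07, edgeR adjusted p = 0.0426; trend-removed -0.86, edgeR adjusted p = 0.0594). IDUA, with 69.3% GC, rose from 5.08 ± 1.38 to 18.6 CPM (1.87, edgeR adjusted p = 0.0487) and turned to -0.77 trend-removed, and ARSA measured 7.68 ± 2.00 and 24.5 CPM. LIPA lost the call without any single wild-type library, and IDUA without library 2 or 3. The list's median was -0.38, with 35 of 41 genes negative against 53.2% of all tested genes and 23 of 41 below the wild-type range (background 37.9%). Trend-removed the median was -0.46 and 32 of 41 lay below the range, 78.05% against 36.5%. In that fit 3 genes were called lower and 0 higher, where 0.822% of all tested genes were called lower and 2.02% higher.

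No gene was called among the 24 other membrane and sorting genes, the 16 tested subunits and partners of the proton pump that acidifies the lysosome, or the 21 Rag, folliculin and mTORC1 regulators; their medians were -0.30, -0.14 and -0.22. At an unadjusted p below 0.05 stood 8, 4 and 3 of them, where 25.4% of all tested genes did. The smallest p of each list belonged to LAPTM4A (366 ± 18.5 and 218 CPM), the pump subunit ATP6V1A (159 ± 16.5 and 83.9 CPM) and RRAGD, a Rag GTPase (53.1 ± 3.48 and 27.6 CPM), with edgeR adjusted p = 0.0647, 0.0626 and 0.0636. RPTOR, the mTORC1 subunit raptor, measured 20.6 ± 4.88 and 50.8 CPM (edgeR adjusted p = 0.0647).

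**Figure D5:**
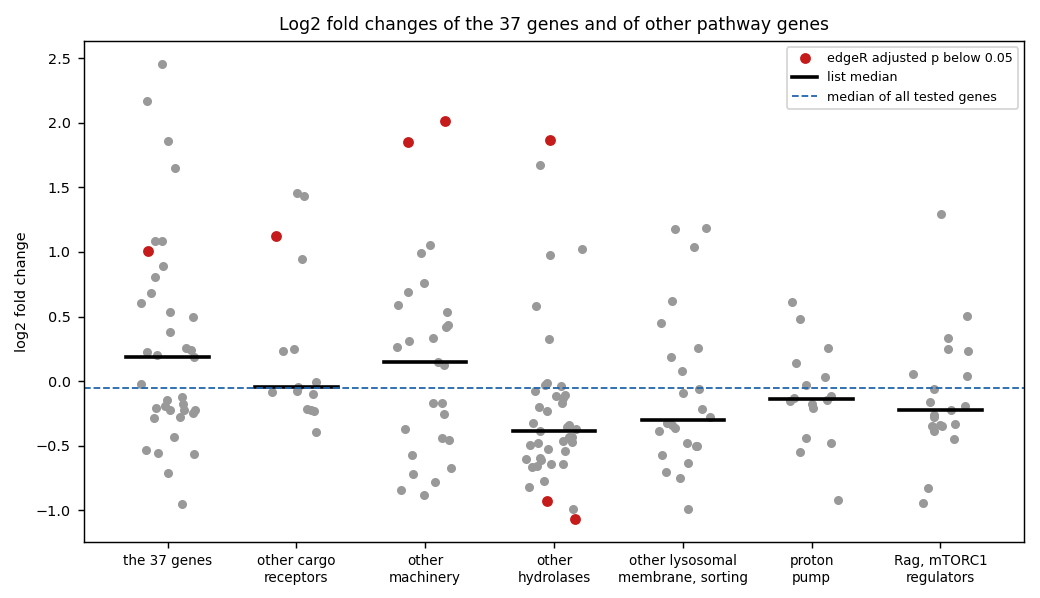
Log2 fold change of each tested gene, as measured, for the 37 genes and the 6 other lists; red points passed at an edgeR adjusted p below 0.05, bars are list medians and the dashed line is the median of all tested genes (-0.05). The hydrolases have the lowest median (-0.38), and 1 red point, TFE3, lies among the 37 genes.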

How the data were processed

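RNA was measured in 3 wild-type libraries and 1 library labelled ARID1B shRNA, with groups taken from the sample titles. The deposited values are counts of reads per gene, without normalization. Tools named in the submitters' processing notes are HTSeq, HISAT2, DESeq2 and bcl2fastq, and the build is GRCh37 (hg19); their versions, the strand setting and the annotation are not given here. The counters that name no gene were left out. Symbols came from current gene names (52338 of 57820 identifiers matched), and GC content, transcript length and exon overlap from GENCODE 29 (GRCh38).

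The main test was edgeR 4.0.16 (R 4.3.3). Genes passed filterByExpr (minimum count 10, total 15), libraries were scaled by TMM, and glmQLFit with robust shrinkage and glmQLFTest compared the groups on 2 residual degrees of freedom. Benjamini-Hochberg adjustment ran over 17024 genes, with a threshold of 0.05. An SE is the absolute log2 fold change divided by the square root of F. The trend on GC content and log2 length was fitted per library by loess (span 0.3, genes averaging 20 counts or more) and entered as offsets. Per-kb values and shares used the longest transcript and counts as measured, without trend removal. Alternatives were RLE and upper-quartile scaling, no filter, a minimum mean count of 50, DESeq2 1.42.0, limma-voom (limma 3.58.1), no robust shrinkage, trend removal and each wild-type library left out. The procedure was also run on simulated counts with the same dispersion for every gene and no GC trend among the wild-type libraries. That run therefore does not show how the calls behave under the wild-type differences described above.

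The members and lists were chosen with earlier results of these data known. Named were all members, ARID1B, MTAP, in each other list up to 4 genes with the smallest p, and genes at 0 in every library. ATG4C, NRBF2, AMBRA1, PIK3R4, CDKN2B, CDKN2A and the marker genes given were named after their values were seen. NCOA4 matched no identifier, and MAP1LC3B2, MAP1LC3C and ATP6V0C were not tested. Promoter windows for MAP1LC3A, RB1CC1, UVRAG, LAMP2, CTSB and HEXA were not used here. The values of 1 gene that the rule names are not reported here.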

Additional observations from a re-analysis of the deposited data

How the results depend on the processing

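Of the 37 members, 30 kept the sign of their log2 fold change under all 11 alternative settings (10 for MAP1LC3A and TFEB). For the 33 members outside the wild-type range, leaving out 1 wild-type library could hardly turn the sign. With the trend removed the sign turned for RB1CC1 (0.15), ATG2A (-0.52), ATG9A (-0.031), ATG4B (-0.021), ATG5 (0.091) and MCOLN1 (-0.35), and outside the set for IDUA (-0.77), ARSA (-0.11), TMEM175 (-0.13) and FKBP8 (-0.39). ATG13 turned with RLE scaling (0.0036) and DESeq2 (0.0037). The number of members called, 1 in the main fit, was 11 with no filter on low counts, 6 with DESeq2 and 2 with limma-voom or without robust shrinkage, and 0 to 3 without single wild-type libraries (0 without library 2, where 11 had an unadjusted p below 0.05). TFE3 passed in 8 of 11 alternatives. Over all genes 763 were called, 3226 with no filter, 1775 with DESeq2, 484 with the trend removed, and 157 to 1189 without single libraries (lowest without library 2). For other pathway genes the 6 became 29 with no filter and 17 with DESeq2, 4 with the trend removed, and 0 to 6 without single libraries (0 without library 2, where 40 had an unadjusted p below 0.05). The members' median of 0.18 became 0.063 with upper-quartile scaling, which lowered the median of all genes from -0.05 to -0.17, -0.029 with a mean count of at least 50, where 35 members were tested, and -0.021 with the trend removed. The share of higher genes among all called went from 81.4% to 71.1% with the trend removed and 70.5% with no filter. The cause of the other shifts was not tested. No paired analysis was possible because there is a single library labelled ARID1B shRNA and no label links it to a wild-type library. The single shRNA library and its 8792848 reads limit scarce genes such as TFEB and MAP1LC3A.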
